A study of Oryza sativa with 16 samples.

Results

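The 9 cellulose synthase genes CESA1 to CESA9 were followed in rice flag leaves under reproductive-stage drought stress (RDS). They were found in the flag-leaf count table by their locus identifiers, and all 9 were present among 55801 loci. Each of the 9 passed the minimum of 10 counts in total over all libraries, as did 28283 loci of the table. mRNA libraries came from 4 groups of 4 plants. DTY-IL drought, DTY-IL control, Swarna drought and Swarna control each had 4 biological replicates. Swarna is a high-yielding indica variety that is sensitive to drought, and DTY-IL is a single introgression line that carries segments of the tolerant donor N22 in a Swarna background, so a difference between them rests on 1 line of each kind. Both were grown in greenhouse pots, where drought plants were dried to 75% and later 50% of field capacity and sampled on day 12 of stress, and control plants were kept well watered.

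Cellulose synthases are plasma membrane enzymes that join glucose into the glucan chains of cellulose. Different CESA proteins assemble into rosette-shaped complexes, and the set that a cell uses depends on the wall it is laying down. In rice, CESA4, CESA7 and CESA9 are needed together for the thick secondary walls of fibres and vascular tissue, and loss of any of them gives brittle culms. CESA1, CESA3 and CESA8 are known from the primary walls of growing cells. CESA2, CESA5 and CESA6 are placed outside the secondary wall set.

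Library totals ranged from 14250527 to 19367077 estimated counts, and the values below are CPM, the counts out of every 1000000 of the library. Library sizes were first scaled by TMM factors, which adjust for differences in RNA composition. The factors ran from 1.09 to 1.31 in drought libraries and from 0.762 to 0.906 in control libraries. A gene was called where edgeR's quasi-likelihood test gave a p, adjusted over all loci, no higher than 0.05 and the change was at least 2-fold. A list of 5 green leaf loci, drawn up from general knowledge as Rubisco small subunit, Rubisco activase and antenna genes, was abundant in every library. Its summed level was 9232 to 22818 CPM in DTY-IL drought and 79455 to 102307 CPM in DTY-IL control, and 3302 to 8462 CPM in Swarna drought against 89942 to 130280 CPM in Swarna control. All 5 loci were called lower under drought in both genotypes. A list of 7 floral organ loci summed to 12.4 to 17.8 CPM in DTY-IL drought and 14.9 to 16.1 CPM in DTY-IL control, and to 9.98 to 21.1 CPM in Swarna drought and 15.7 to 25.5 CPM in Swarna control, with 1 locus, LOC_Os12g10540, at 0 in all libraries. Of its 3 loci that were tested, 1 was called lower under drought in each genotype. A list of 6 dividing cell loci summed to 11.9 to 20.1 CPM in DTY-IL drought, 14.3 to 16.002 CPM in DTY-IL control, 15.9 to 17.9 CPM in Swarna drought and 13.0 to 15.9 CPM in Swarna control, and none of its 5 tested loci was called under drought in either genotype. The part of these markers in the results below was not tested.

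The secondary wall set rose steeply under drought in both genotypes. CESA4, CESA7 and CESA9 were at most at 2.00 CPM in any control library and were higher in every drought library of the same genotype. Together with CESA2 they made up the 4 of 9 genes called higher in DTY-IL, where 12.0% of all tested loci were called higher, and the 4 of 9 called higher in Swarna, where 15.2% were. None of the 9 was called lower, against 11.5% of all loci in DTY-IL and 17.3% in Swarna. In a bulk sample, a change in the share of cells that make secondary walls cannot be told apart from a change in the RNA per cell.

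CESA7, LOC_Os10g32980 on chromosome 10 by its identifier, had 16.7, 6.65, 30.7 and 13.0 CPM in DTY-IL drought, against 0.277, 0.265, 0.513 and 0.521 CPM in DTY-IL control. In Swarna drought it had 3.79, 6.31, 15.9 and 13.6 CPM, against 0.567, 0.475, 0.0732 and 0.631 CPM in Swarna control. No drought library overlapped with a control library, and the values within each drought group spread more than 4-fold. The change was 41.7-fold in DTY-IL (log2 fold change 5.38, SE 0.59, edgeR adjusted p = 1.29e-06) and 22.2-fold in Swarna (4.47, SE 0.59, edgeR adjusted p = 5.87e-06). The control levels rest on few reads, since CESA7 had 24 counts in total in DTY-IL control and 24 in Swarna control, so the sizes of these folds are imprecise.

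CESA9, LOC_Os09g25490 on chromosome 9, the partner of CESA7 in the secondary wall complex, had 13.8, 6.65, 25.7 and 11.3 CPM in DTY-IL drought, against 0.208, 0.199, 0.399 and 0.819 CPM in DTY-IL control. In Swarna drought it had 3.02, 5.23, 13.1 and 10.5 CPM, against 0.630, 0.316, 0.293 and 0.552 CPM in Swarna control. Drought and control were again apart, and within the drought groups the same libraries were high and low as for CESA7. It rose 35.4-fold in DTY-IL (log2 5.14, SE 0.57, edgeR adjusted p = 1.28e-06) and 17.3-fold in Swarna (4.11, SE 0.56, edgeR adjusted p = 8.58e-06), over 24 counts in DTY-IL control and 25 in Swarna control.

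CESA4, LOC_Os01g54620 on chromosome 1, the other subunit of this set, had 13.8, 9.09, 25.0 and 12.3 CPM in DTY-IL drought, against 1.25, 1.52, 2.00 and 1.86 CPM in DTY-IL control. The Swarna drought libraries had 5.28, 7.14, 11.3 and 9.29 CPM, against 1.07, 0.870, 0.878 and 0.947 CPM in Swarna control. Drought and control did not overlap, and DTY-IL control stood wholly above Swarna control. The rise was 9.04-fold in DTY-IL (log2 3.18, SE 0.31, edgeR adjusted p = 2.80e-07) and 8.65-fold in Swarna (3.11, SE 0.33, edgeR adjusted p = 4.19e-07).

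**Figure D1:**
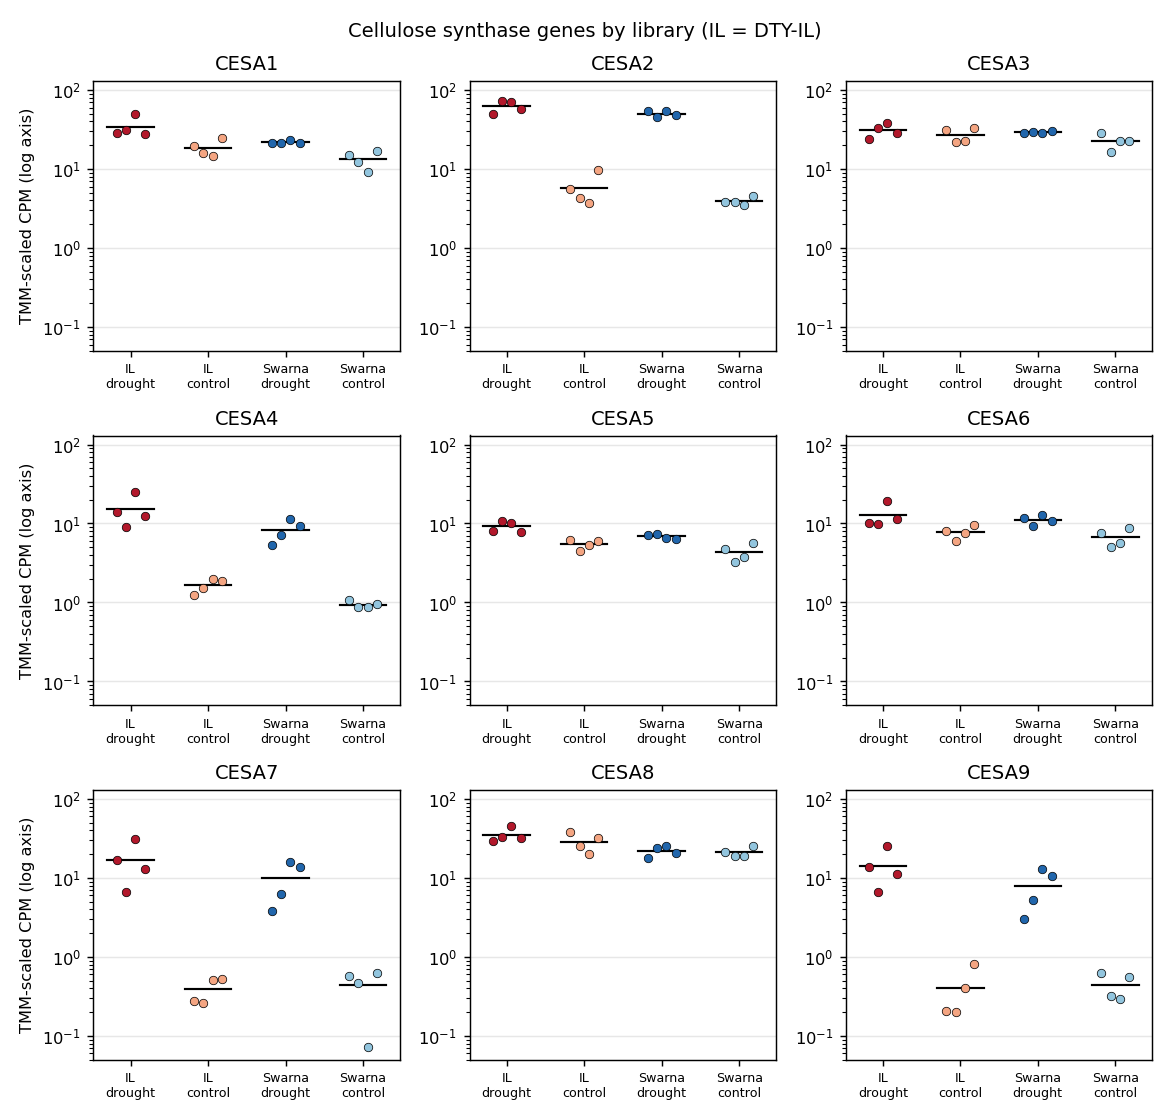
Each panel shows 1 gene, with TMM-scaled CPM on a log axis for the 16 libraries in 4 groups (points, 1 per library) and the group mean (line, n = 4). CESA2, CESA4, CESA7 and CESA9 have drought points far above the control points of the same genotype, as in CESA2 with 49.5 to 72.2 CPM in DTY-IL drought and 3.76 to 9.68 CPM in DTY-IL control, while the points of CESA3 and CESA8 lie close together.

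CESA2, LOC_Os03g59340 on chromosome 3, is not counted in the secondary wall set, yet it moved with the called genes. It had 49.5, 72.2, 69.8 and 56.8 CPM in DTY-IL drought, against 5.61, 4.24, 3.76 and 9.68 CPM in DTY-IL control. In Swarna drought it had 54.1, 45.0, 54.9 and 47.7 CPM, against 3.84, 3.88, 3.51 and 4.58 CPM in Swarna control. Every drought library was above 45 CPM and every control library below 10 CPM. CESA2 rose 10.7-fold in DTY-IL (log2 3.42, SE 0.23, edgeR adjusted p = 4.55e-09) and 12.8-fold in Swarna (3.67, SE 0.24, edgeR adjusted p = 1.31e-09). Its drought libraries were tight, with an SD of log2 CPM of 0.26 in DTY-IL drought and of 0.14 for Swarna drought, while CESA7 had 0.91 in DTY-IL drought and 0.95 for Swarna drought.

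The remaining 5 genes were not called in either genotype. CESA1, CESA5 and CESA6 passed the adjusted p with fitted rises of less than 2-fold in both genotypes. The upper ends of their 95% intervals lay above 2-fold, from 2.07-fold for CESA5 in Swarna to 2.49-fold for CESA1 in DTY-IL. With them, 7 of 9 genes passed the adjusted p alone in the upward direction in DTY-IL, where 21.2% of all loci did. In Swarna 7 of 9 passed, where 25.4% did. CESA1, LOC_Os05g08370 on chromosome 5 and a primary wall subunit, had 28.8, 30.8, 49.3 and 27.4 CPM in DTY-IL drought, against 19.6, 15.8, 14.5 and 24.6 CPM in DTY-IL control. The Swarna drought libraries had 21.5, 21.2, 23.6 and 21.1 CPM, against 15.1, 12.1, 9.30 and 17.0 CPM in Swarna control. The groups did not overlap in either genotype, and 1 library, DTY-IL drought 3, stood far above the other 3 of its group. The log2 fold change of CESA1 was 0.88 in DTY-IL (SE 0.21, edgeR adjusted p = 0.00285) and 0.71 in Swarna (SE 0.21, edgeR adjusted p = 0.00995). Without DTY-IL control 4 the DTY-IL value was 1.04, which made CESA1 a called gene.

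CESA5, LOC_Os03g62090 on chromosome 3, had 8.09, 10.6, 10.1 and 7.86 CPM in DTY-IL drought, against 6.23, 4.44, 5.36 and 5.95 CPM in DTY-IL control. In Swarna drought it had 7.20, 7.43, 6.61 and 6.45 CPM, against 4.79, 3.24, 3.81 and 5.60 CPM in Swarna control. Both genotypes had all drought libraries above all control libraries. Its log2 fold change was 0.74 in DTY-IL (SE 0.18, edgeR adjusted p = 0.00326) and 0.67 in Swarna (SE 0.18, edgeR adjusted p = 0.00579). CESA6, LOC_Os07g14850 on chromosome 7, had 10.1, 9.86, 19.3 and 11.3 CPM in DTY-IL drought, against 8.03, 5.97, 7.64 and 9.53 CPM in DTY-IL control. It had 11.9, 9.29, 12.9 and 10.7 CPM in Swarna drought, against 7.63, 5.06, 5.71 and 8.68 CPM in Swarna control. The closest libraries were nearly level, at 9.86 CPM in DTY-IL drought 2 and 9.53 CPM in DTY-IL control 4. CESA6 gave 0.70 in DTY-IL (SE 0.23, edgeR adjusted p = 0.0194) and 0.72 in Swarna (SE 0.23, edgeR adjusted p = 0.0141) on the log2 scale. This was the least firm of the rises, since the edgeR adjusted p was 0.106 in DTY-IL without DTY-IL drought 3, 0.0673 without DTY-IL control 2, and 0.0592 in Swarna without Swarna drought 3.

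CESA3 and CESA8, both primary wall subunits, did not pass the test in either genotype. CESA3, LOC_Os07g24190 on chromosome 7, had 24.2, 33.0, 38.8 and 28.9 CPM in DTY-IL drought, against 31.3, 21.9, 22.6 and 33.3 CPM in DTY-IL control. Swarna drought had 28.4, 29.4, 28.9 and 29.9 CPM of CESA3, against 28.2, 16.4, 22.4 and 22.3 CPM in Swarna control. The DTY-IL groups overlapped widely, while the Swarna drought libraries were almost identical and lay just above the highest control. The log2 fold change of CESA3 was 0.20 in DTY-IL (95% interval -0.18 to 0.57, edgeR adjusted p = 0.403) and 0.38 in Swarna (0.01 to 0.75, edgeR adjusted p = 0.0832). Without Swarna control 1 the Swarna value was 0.52, with an edgeR adjusted p of 0.0297. CESA8, LOC_Os07g10770 on chromosome 7, had 29.3, 33.2, 45.5 and 31.8 CPM in DTY-IL drought, against 37.9, 25.5, 19.95 and 31.7 CPM in DTY-IL control. It had 18.1, 24.2, 25.3 and 20.8 CPM in Swarna drought, against 21.4, 18.99, 19.03 and 25.5 CPM in Swarna control. Drought and control overlapped in both genotypes. Its log2 fold change was 0.28 in DTY-IL (95% interval -0.11 to 0.68, edgeR adjusted p = 0.241) and 0.06 in Swarna (-0.34 to 0.46, edgeR adjusted p = 0.827), so a 2-fold change of CESA8 lies outside both intervals.

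Over all 9 genes the median log2 fold change was 0.88 in DTY-IL, where the median of all tested loci was 0.03, and 0.72 in Swarna, where it was 0.06. In DTY-IL, drought and control libraries did not overlap for 7 of 9 genes, with drought higher, against 18.6% of all loci. In Swarna this held for 8 of 9, against 24.5% of all loci. With libraries scaled by their totals alone, the median of all loci moved to 0.43 in DTY-IL and 0.70 in Swarna. The calls rose to 7 of 9 in DTY-IL, where 5801 of 28283 loci were called higher. In Swarna they rose to 8 of 9, where 9040 of 28283 loci were called higher. Relative to that moved median the genes kept nearly the values given above, as with CESA8 at 0.27 in DTY-IL and 0.01 in Swarna.

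**Figure D2:**
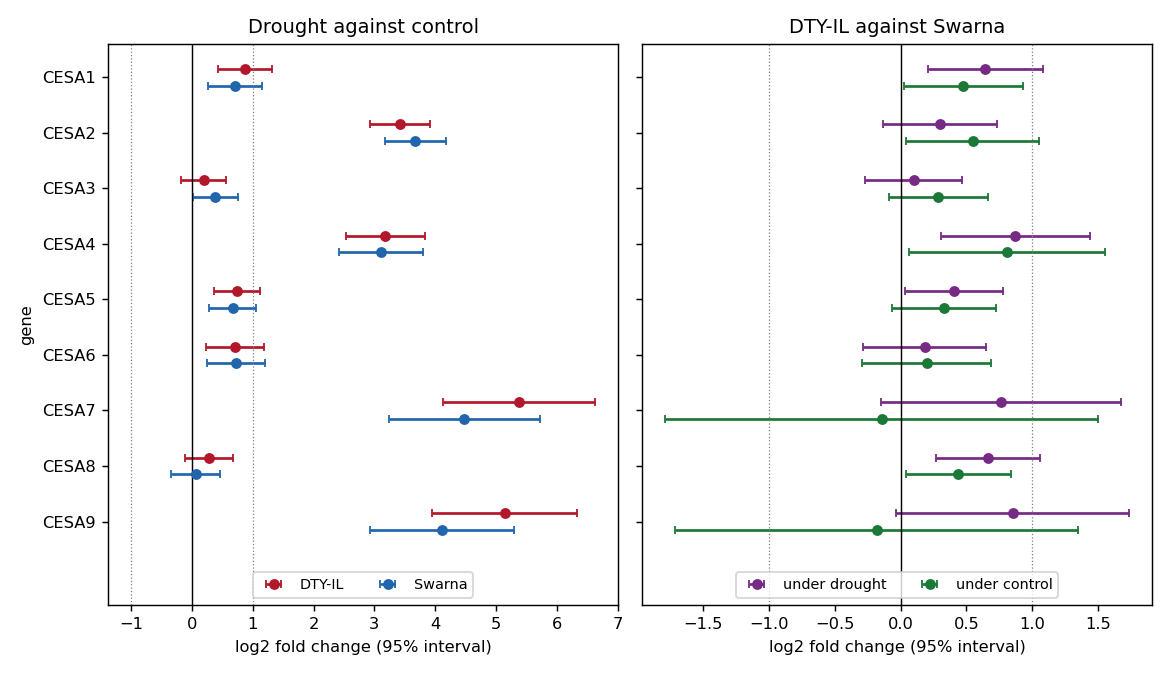
Points are log2 fold changes from edgeR with 95% intervals, for drought against control in each genotype (left) and DTY-IL against Swarna under each treatment (right), with dotted lines at a 2-fold change. On the left, CESA2, CESA4, CESA7 and CESA9 lie above 3 in both genotypes and the other 5 below 1, and on the right every gene lies below 1.

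The mix of cellulose synthase transcripts changed with drought. Counts were not divided by transcript length, so the shares below compare libraries and do not rank the genes. CESA4, CESA7 and CESA9 together held 22.8, 10.6, 25.9 and 18.2% of the counts of the 9 genes in DTY-IL drought, against 1.57, 2.49, 3.79 and 2.71% in DTY-IL control. They held 7.89, 12.0, 20.9 and 19.6% in Swarna drought, against 2.73, 2.71, 1.91 and 2.48% in Swarna control. No drought library was as low as the highest control library. CESA2 alone held 25.5, 34.1, 22.2 and 28.3% in DTY-IL drought, against 5.08, 5.32, 4.90 and 8.20% in DTY-IL control. Its share was 35.3, 29.0, 28.5 and 28.1% in Swarna drought, against 4.62, 6.32, 5.41 and 5.34% in Swarna control. CESA5 and CESA6 together held 9.49 ± 0.145% in DTY-IL drought, against 14.0 ± 1.96% in DTY-IL control, and 10.9 ± 1.10% in Swarna drought, against 14.9 ± 1.29% in Swarna control (SD, n = 4 each). CESA1, CESA3 and CESA8 held 43.6 ± 1.56% (SD, n = 4) in DTY-IL drought, against 77.5 ± 2.80% in DTY-IL control, and 43.8 ± 3.34% in Swarna drought, against 77.2 ± 1.13% in Swarna control. Their smaller share went with a larger total and not with lower levels. The summed level of the 9 genes was 230 ± 56.5 CPM in DTY-IL drought, against 96.2 ± 21.1 CPM in DTY-IL control, with 168 ± 18.1 CPM in Swarna drought and 73.8 ± 12.4 CPM in Swarna control (SD, n = 4 each).

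**Figure D3:**
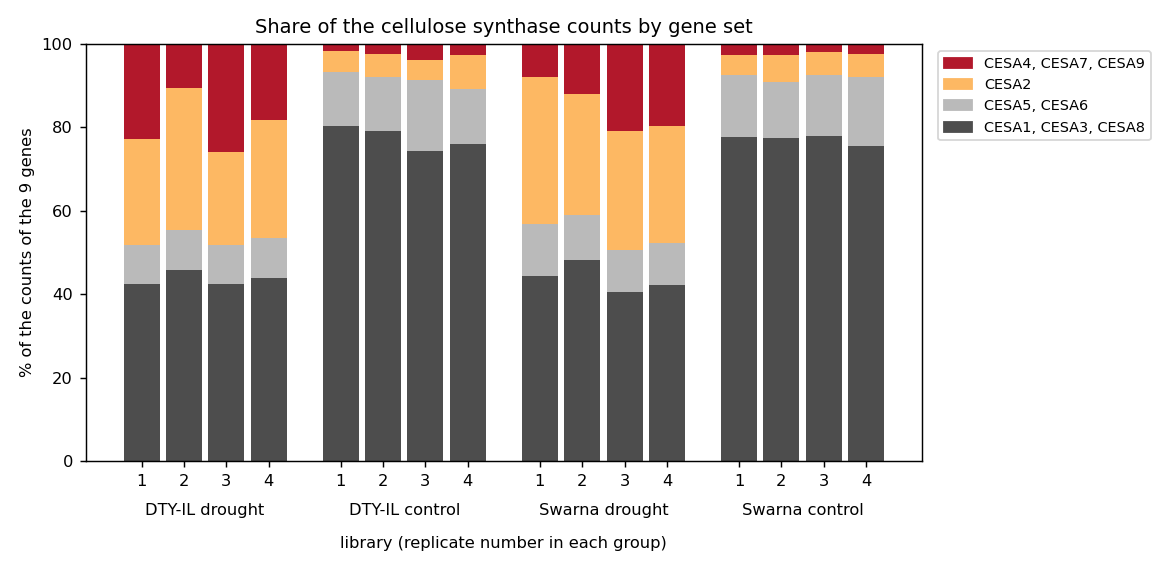
Stacked bars give the percentage of the counts of the 9 genes held by 4 gene sets in each of the 16 libraries, ordered by group and replicate number. CESA4, CESA7 and CESA9 hold 7.89 to 25.9% in drought libraries and 1.57 to 3.79% in control libraries, and CESA2 holds 22.2 to 35.3% in drought libraries and 4.62 to 8.20% in control libraries.

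The genotypes were compared within each treatment. Under drought, 0 of 9 genes were called at both thresholds between DTY-IL and Swarna, where 6.59% of all loci were. At the adjusted p alone, 2 of 9 were higher in DTY-IL, against 6.83% of all loci, and 4 of 9 had an unadjusted p under 0.05 against 25.1% of all loci. DESeq2 and limma-voom called 0 at both thresholds as well. With the number in the sample descriptions as a replicate block, 1 of 9 was called, against 1250 of 28283 loci. That gene was CESA4 at 1.03 (edgeR adjusted p = 0.0145), and CESA8 gave 0.61 (edgeR adjusted p = 0.0816). The number gave 3 pairs of DTY-IL drought and Swarna drought libraries. DTY-IL drought 2 had a number that no other library had, so its block term fitted it exactly and it had no weight in these values. It was the lowest DTY-IL drought library for CESA4, at 9.09 CPM. In the fit without the block, all 9 fitted differences were positive, with a median log2 value of 0.64 beside 0.01 over all tested loci. The 9 genes were read in the same plants, so their signs are not independent. Without DTY-IL drought 3, CESA3 gave -0.023 and CESA6 gave -0.098. CESA8 was 0.66 higher on the log2 scale in DTY-IL drought (SE 0.19, edgeR adjusted p = 0.0292), and its DTY-IL libraries, from 29.3 CPM upward, all lay above the Swarna libraries, which reached 25.3 CPM. CESA4 was 0.87 higher (SE 0.27, edgeR adjusted p = 0.0453), though its libraries overlapped. Neither passed the adjusted p without DTY-IL drought 3, where CESA4 gave 0.51 with an edgeR adjusted p of 0.194 and CESA8 gave 0.51 with an edgeR adjusted p of 0.0996. CESA4 passed in 5 of 16 fits that left out 1 library each, including 2 in which it exceeded a 2-fold difference, and CESA8 in 13 of 16.

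The libraries of CESA1, CESA5 and CESA8 did not overlap between DTY-IL drought and Swarna drought, which makes 3 of 9 genes against 8.75% of all loci. CESA1 missed the threshold with a log2 difference of 0.64 (SE 0.21, edgeR adjusted p = 0.0546), and passed it in DESeq2 with an adjusted p of 0.0335. CESA7 and CESA9 were fitted at 0.77 (95% interval -0.15 to 1.68) and 0.85 (-0.03 to 1.74), with edgeR adjusted p-values of 0.292 and 0.218. Without DTY-IL drought 3 the values were 0.29 for CESA7 and 0.41 for CESA9. Their drought libraries overlapped between genotypes. The smallest fitted differences were those of CESA3, at 0.10 (-0.27 to 0.47), CESA6, at 0.18 (-0.28 to 0.65), and CESA2, at 0.30 (-0.13 to 0.73).

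Under control conditions 0 of 9 genes passed the adjusted p between DTY-IL and Swarna, against 9.90% of all loci, and 0 were called at both thresholds, against 5.11%. An unadjusted p under 0.05 was found for 4 of 9, against 24.3% of all loci, and DESeq2 and limma-voom called 0. The unadjusted count was 0 without DTY-IL control 4, Swarna control 2 or Swarna control 3, and 1 in limma-voom. CESA4 was fitted 0.81 higher in DTY-IL control (95% interval 0.07 to 1.55, edgeR adjusted p = 0.165) and was the single gene of the 9 whose libraries did not overlap, where 8.26% of all loci had DTY-IL control wholly above Swarna control. CESA8 was fitted at 0.44 (0.04 to 0.84, edgeR adjusted p = 0.161), and passed the threshold with 0.58 and an edgeR adjusted p of 0.0448 when DTY-IL control 3 was left out. The few control reads left CESA7 between -1.78 and 1.502 and CESA9 between -1.71 and 1.35.

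The drought response itself was not shown to differ between the genotypes for any of the 9 genes. The interaction, the DTY-IL log2 response minus the Swarna response, was called for 0 of 9 genes, against 4.91% of all loci, and 0 of 9 had an unadjusted p under 0.05, against 21.4% of all loci. DESeq2 and limma-voom also called 0. CESA9 had the largest value, 1.03 (95% interval -0.75 to 2.82, edgeR adjusted p = 0.538), and CESA7 followed with 0.91 (-0.99 to 2.81). CESA2 gave -0.25 (-0.91 to 0.41). The narrowest intervals belonged to CESA3 (-0.71 to 0.34), CESA5 (-0.47 to 0.62) and CESA8 (-0.33 to 0.78), and they leave out a 2-fold difference between the responses. So do the intervals of CESA1 (-0.46 to 0.79), CESA2 and CESA6 (-0.69 to 0.66). Those of CESA4 (-0.94 to 1.07), CESA7 and CESA9 do not.

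By group means from high to low, 6 of the 9 genes followed the order DTY-IL drought, Swarna drought, DTY-IL control and Swarna control. Among these 6, the libraries of DTY-IL drought overlapped with those of Swarna drought for CESA2, CESA3, CESA4 and CESA6, and DTY-IL control overlapped with Swarna control for all but CESA4. CESA7 and CESA9 differed from it in the order of the controls, which overlapped. CESA8 had DTY-IL control, at 28.8 ± 7.77 CPM, above Swarna drought, at 22.1 ± 3.27 CPM (SD, n = 4 each), and these also overlapped.

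The secondary wall genes ranked the drought libraries alike within each genotype. In DTY-IL drought the order of libraries from high to low was 3, 1, 4 and 2 for CESA4, CESA7 and CESA9 alike, and among Swarna drought libraries it was 3, 4, 2 and 1 for each of them. DTY-IL drought 3 stood above its group mean by 0.83 for CESA4, 1.08 for CESA7 and 1.00 for CESA9 on the log2 scale, and DTY-IL drought 2 stood at -0.62, -1.11 and -0.93 for the same genes. Swarna drought 1 stood at -0.58, -1.14 and -1.15. CESA2 did not follow this order, with deviations of 0.23 in DTY-IL drought 2 and of 0.11 for Swarna drought 1. The other genes were also above their group means in DTY-IL drought 3, from 0.15 for CESA5 to 0.66 for CESA6. The log2 difference between CESA7 and CESA9 had an SD of 0.11 over the 8 drought libraries, and that between CESA2 and CESA7 had an SD of 0.93. CESA4 was less close, with an SD of 0.35 to CESA9 and 0.40 to CESA7, beside 0.37 to CESA8 and 0.38 to CESA1. Pairs outside the set were also close, as with 0.15 for CESA2 and CESA5 and 0.15 for CESA1 and CESA8. The sum of the green leaf list was lowest among DTY-IL drought libraries in DTY-IL drought 3, at 9232 CPM against 15137 to 22818 CPM in the other 3. Among Swarna drought libraries it was lowest in Swarna drought 1, at 3302 CPM, the library with the lowest secondary wall genes. A link between this list and the secondary wall genes was not tested.

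**Figure D4:**
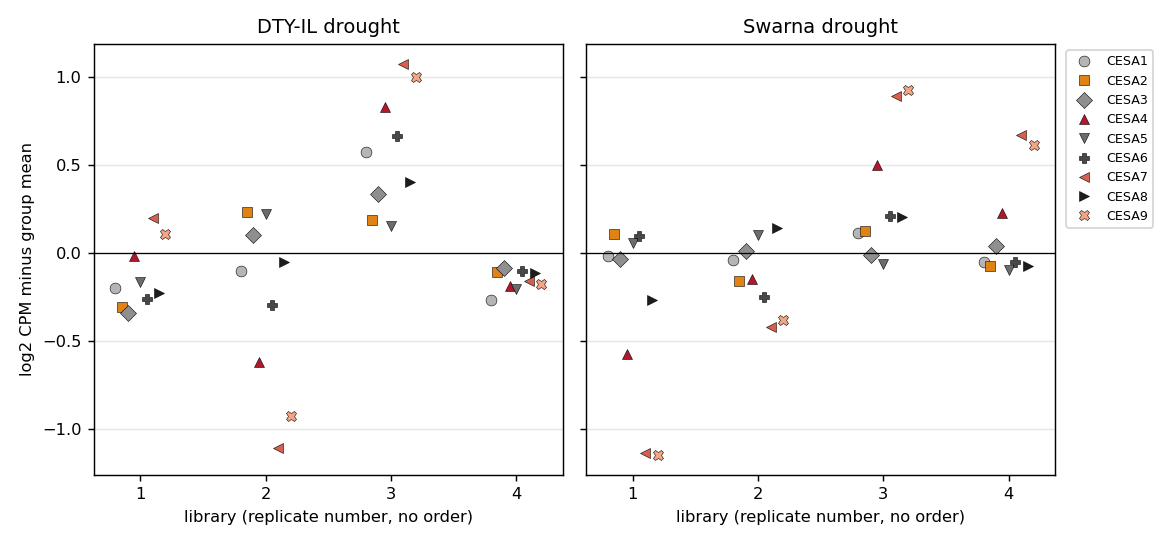
For each of the 8 drought libraries, points give the log2 CPM of each of the 9 genes minus the mean of its group, with DTY-IL drought on the left and Swarna drought on the right. CESA4, CESA7 and CESA9 spread most in each group, up to 1.08 above the mean in DTY-IL drought 3 and down to -1.15 in Swarna drought 1. This does not hold in every library, since in DTY-IL drought 1 CESA3 (-0.34) and CESA2 (-0.31) lie further out than CESA7 (0.20). CESA2 runs from -0.31 to 0.23.

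Profiles across the 16 libraries were compared by the root-mean-square (RMS) difference of centred log2 CPM, as a description over libraries that share their groups. The mean profile of CESA4, CESA7 and CESA9 was nearest to LOC_Os07g40130 (RMS 0.49), LOC_Os01g18050 (0.54) and LOC_Os03g10320 (0.57) among 16559 other loci. LOC_Os07g40130 averaged 13.2 ± 6.74 CPM in DTY-IL drought and 0.374 ± 0.124 CPM in DTY-IL control, with 7.18 ± 2.45 CPM in Swarna drought and 0.448 ± 0.334 CPM in Swarna control (SD, n = 4 each). CESA2 lay at an RMS of 0.63 from the same profile, close to the 0.56 of CESA4, which is part of it, whereas the other 5 genes lay at 1.62 to 1.93. This distance spans drought and control libraries, so the size of the drought change given above enters into it. Over the drought libraries alone, the log2 difference of CESA2 had an SD of 0.93 to CESA7 and 0.90 to CESA9. The mean profile of CESA1, CESA3 and CESA8 was nearest to LOC_Os02g14290 (0.17), LOC_Os01g42280 (0.18) and LOC_Os05g32110 (0.19). CESA5, at 0.21, and CESA6, at 0.26, were also near it. The nearest loci depended in part on the prior count of log2 CPM, which was 2 here. With a prior count of 0.5, LOC_Os09g27010 (0.60) took the place of LOC_Os07g40130, and LOC_Os11g43600 (0.19) that of LOC_Os05g32110.

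Other genes linked to cellulose and wall formation were read from lists drawn up from general knowledge, and are given by locus since the files do not name them. Of 2 further loci listed as cellulose synthases, LOC_Os12g29300 had 0 counts in all 16 libraries. LOC_Os06g39970 moved against the 4 called genes, with 0.750 ± 0.223 CPM in DTY-IL drought and 1.63 ± 0.486 CPM in DTY-IL control (SD, n = 4 each), a log2 fold change of -1.12 (SE 0.39, edgeR adjusted p = 0.0277), and a Swarna value of -0.18 (edgeR adjusted p = 0.731). Of 34 cellulose synthase-like loci, 29 were tested, and 4 were called higher and 4 lower in DTY-IL, as were 4 higher and 4 lower in Swarna. Over all loci 12.0% were called higher and 11.5% lower in DTY-IL, and 15.2% higher and 17.3% lower in Swarna, so these counts were near the background. Their median log2 fold change was 0.27 in DTY-IL and -0.22 in Swarna, beside 0.03 and 0.06 over all loci. LOC_Os09g30120 of this list had 17.9 ± 1.89 CPM in DTY-IL drought and 9.53 ± 1.29 CPM in DTY-IL control, with 7.47 ± 3.18 CPM in Swarna drought and 0.988 ± 0.616 CPM in Swarna control (SD, n = 4 each). It was called higher under drought in Swarna (log2 2.88, SE 0.36, edgeR adjusted p = 3.61e-06). In DTY-IL it rose by 0.91 (SE 0.30, edgeR adjusted p = 0.0219), short of the 2-fold threshold. Its interaction of -1.98 was also called (SE 0.47, edgeR adjusted p = 0.0197). In the interaction, 2 of the 29 tested loci of this list were called lower and 0 higher, beside 4.91% of all loci called in either direction.

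Among 8 loci listed as other cellulose-related genes, 2 were called higher and 0 lower in DTY-IL, where 12.0% and 11.5% of all loci were, and 2 higher and 1 lower in Swarna, where 15.2% and 17.3% were. LOC_Os05g07790 was called higher in both, with 5.76 ± 1.13 CPM in DTY-IL drought and 2.39 ± 0.401 CPM in DTY-IL control, with 6.29 ± 0.686 CPM in Swarna drought and 2.02 ± 0.515 CPM in Swarna control (SD, n = 4 each). Its log2 fold changes were 1.26 in DTY-IL (edgeR adjusted p = 0.000133) and 1.64 in Swarna (edgeR adjusted p = 6.16e-06). The median of this list was 0.53 in DTY-IL and 0.44 in Swarna.

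The 8 loci listed as regulators of secondary walls moved in both directions. Of 6 tested, 3 were called higher and 1 lower in DTY-IL, where 12.0% and 11.5% of all loci were, and 4 higher and 1 lower in Swarna, where 15.2% and 17.3% were, with a median log2 fold change of 2.25 in DTY-IL and 2.51 in Swarna. LOC_Os06g04090 had 18.5, 10.9, 29.8 and 15.1 CPM in DTY-IL drought, against 1.80, 1.52, 1.54 and 3.05 CPM in DTY-IL control. It had 5.37, 7.68, 11.8 and 9.65 CPM in Swarna drought, against 0.504, 0.712, 1.10 and 0.473 CPM in Swarna control. The drought libraries kept the same order as for CESA4, CESA7 and CESA9 in both genotypes. It rose by 3.24 in DTY-IL (SE 0.34, edgeR adjusted p = 7.51e-07) and 3.62 in Swarna (SE 0.39, edgeR adjusted p = 4.73e-07) on the log2 scale. It was also called higher in DTY-IL than in Swarna, by 1.11 under drought (SE 0.30, edgeR adjusted p = 0.0237) and by 1.49 under control (SE 0.41, edgeR adjusted p = 0.0288). LOC_Os08g01330 of the same list went the other way, with 1.18 ± 0.431 CPM in DTY-IL drought and 11.0 ± 0.927 CPM in DTY-IL control, with 0.640 ± 0.179 CPM in Swarna drought and 8.04 ± 2.07 CPM in Swarna control (SD, n = 4 each). Its log2 fold changes were -3.21 in DTY-IL (edgeR adjusted p = 3.85e-08) and -3.63 in Swarna (edgeR adjusted p = 8.82e-09).

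**Figure D5:**
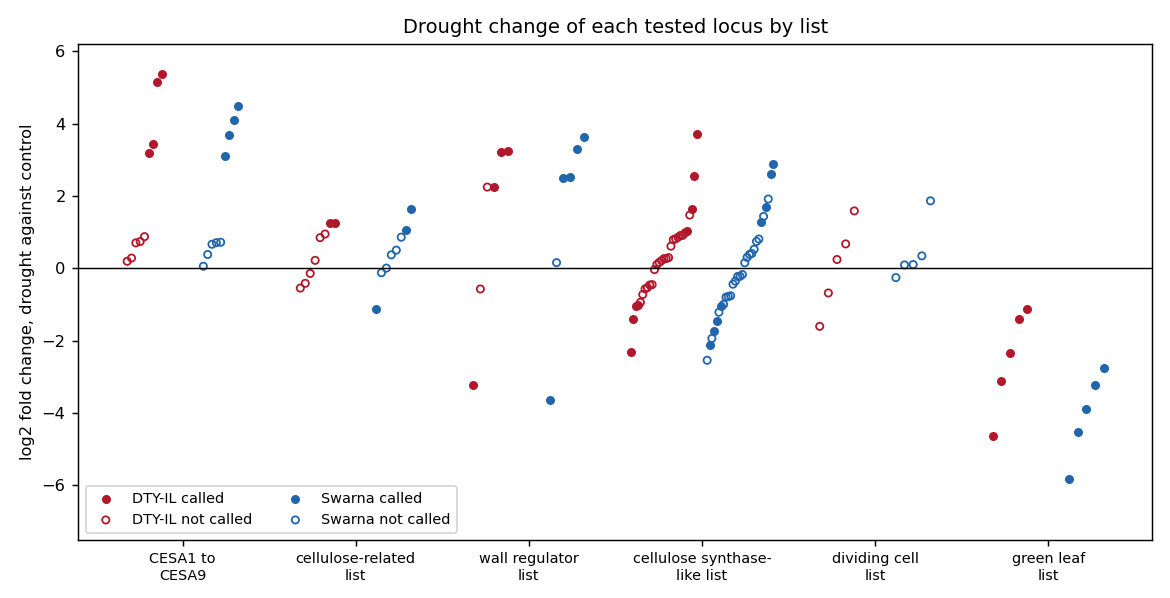
Each point is the log2 fold change of 1 tested locus under drought against control, for DTY-IL and Swarna side by side in 6 lists, filled where the locus was called. CESA1 to CESA9 lie at or above 0.06 with 4 filled points in each genotype, the wall regulator list spans -3.63 to 3.62, and the 5 green leaf loci are all filled and below -1.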

How the data were processed

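Flag-leaf mRNA from 16 plants was compared over 4 groups of 4, by the genotype and treatment in the labels. The authors trimmed reads with Trimmomatic, estimated transcript abundance with Salmon 0.7.2 on japonica transcripts (IRGSP-1.0 with the MSU release 7 annotation) and summed to loci with tximport. The deposited table holds the estimated count (expected count) per locus and library in whole numbers, without normalization. Any scaling by transcript length is not given in the sources used here. The authors' 4 tables of DESeq2 contrasts (fold changes and p-values) were not used.

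The 9 genes were found by locus identifier. Their names come from the gene list chosen for this work, since the files carry none and 0 identifiers matched the RefSeq names table, and no sequence or length was used. Loci with at least 10 counts in total were fitted with edgeR 4.0.16 in R 4.3.3 (TMM factors, quasi-likelihood F test, 4 group means, two-sided). P-values were adjusted by Benjamini-Hochberg over 28283 loci. Intervals of 95% came from the F statistics, and log2 CPM used a prior count of 2. Named list loci were at most 2 of the largest changes called per list and contrast. The 3 nearest profiles were taken among loci whose log2 CPM averaged at least 1. The fit was tested on simulated data. Precision rests on the spread between 4 libraries, and no pair of libraries agreed within counting noise. The genes, lists and tests were chosen with earlier results of these data known. Alternatives were RLE factors, library size alone, no filter, filterByExpr, only the groups compared, limma-voom from limma 3.58.1, calls by adjusted p alone, DESeq2 1.42.0, replicate blocks, removal of the 20 most abundant loci and of each library. Same-numbered libraries were checked for shared deviations from their group means. By the number in the sample descriptions, the 3 pairs of DTY-IL drought and Swarna drought correlated at 0.147 to 0.222, each over 0.1, so blocked values are given for that comparison. Neither numbering met this in another comparison, and what the number marks is not given in the sources used here. The same pairs also have matching title numbers, by which DTY-IL drought 2 and Swarna drought 2 match too, at -0.062. The description block was chosen from these same correlations. Plots were drawn with matplotlib 3.10.9.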

Additional observations from a re-analysis of the deposited data

Results flagged for a closer look

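Of 36 groups of 4 libraries, 1 for each gene and group, 2 held a library far from the other 3 by Dixon's test at its 95% critical value, where chance gives about 1 in 20. CESA1 had 49.3 CPM in DTY-IL drought 3, against 27.4 to 30.8 CPM in the other DTY-IL drought libraries. CESA6 had 19.3 CPM in the same library, against 9.86 to 11.3 CPM in the others. Without DTY-IL drought 3, the log2 fold change of CESA1 in DTY-IL was 0.64 (edgeR adjusted p = 0.0136) and that of CESA6 was 0.42 (edgeR adjusted p = 0.106).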

How the results depend on the processing

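The calls of CESA2, CESA4, CESA7 and CESA9 under drought held in both genotypes under all 11 alternatives and without each of the 16 libraries in turn. The number of genes called in DTY-IL was 7 with library size alone and 7 with the adjusted p alone, and in Swarna 8 and 7. More of all loci were called under these settings too, as given above. Without 1 library it was 4 to 5 in DTY-IL, with CESA1 added when DTY-IL control 4 was left out, and 4 throughout in Swarna. Between DTY-IL drought and Swarna drought it was 2 with the adjusted p alone, 1 with a replicate block by the number in the sample descriptions, and 0 to 1 without 1 library, where the 1 gene was CESA4 without DTY-IL drought 2 or Swarna drought 3. For genotype under control and for the interaction it was 0 throughout. CESA6 in DTY-IL missed the adjusted p in a fit of only the groups compared (0.66, edgeR adjusted p = 0.06005).

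Signs changed only where intervals included 0. With library size alone CESA3 was -0.026 between DTY-IL drought and Swarna drought, and interactions were -0.079 for CESA1, -0.18 for CESA4, -0.17 for CESA5 and -0.020 for CESA8. That scaling put the median of all loci at -0.12 between the drought groups and -0.23 in the interaction. The CESA6 interaction was 0.0037 with RLE factors and 0.0037 with DESeq2, the CESA5 interaction was -0.050 with the description block, and CESA7 between the controls was 0.080 with limma-voom. The causes were not tested. Without 1 library, values ran from -0.048 to 0.16 for CESA8 in Swarna drought, -0.49 to 0.067 for CESA7 and -0.71 to 0.048 for CESA9 between controls, and -0.023 to 0.22 for CESA3 and -0.098 to 0.30 for CESA6 between drought groups. Interactions ran from -0.066 to 0.33 for CESA1, -0.41 to 0.11 for CESA2, -0.30 to 0.24 for CESA4, -0.065 to 0.19 for CESA5 and -0.30 to 0.098 for CESA6.

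Libraries with the same title number correlated at -0.19 to 0.22 over 24 pairs. By description number the range was -0.20 to 0.22 over 17 pairs. Of 16 libraries, 2 were nearest to a library of their own title number and 1 to a library of their own description number. All pairs of DTY-IL drought and Swarna drought by description number were also pairs by title number. Title number added DTY-IL drought 2 with Swarna drought 2, at -0.062. These correlations do not show that either number marks paired plants. The description block changed the number of genes called only between DTY-IL drought and Swarna drought. A block by title number called 4 genes in each genotype and 0 in the other comparisons. The share of CESA4, CESA7 and CESA9 divided by coding length was not run, since no lengths were at hand. The depth limits CESA7 and CESA9, whose control libraries held 1 to 11 counts each.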
